A study of Homo sapiens with 8 samples.

Results

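ERG, RUNX1, ETV6 and LEF1 encode transcription factors that are recurrently altered or deregulated in leukaemia. The data were searched for binding of 7 nuclear proteins across each gene in the 697 line, human pre-B leukaemia cells long kept in culture. The members were the deposited peaks that overlapped, by at least 1 bp, a window around each gene on build hg19: chromosome 21, 39740000 to 40045000 for ERG (305 kb), chromosome 21, 36150000 to 36435000 for RUNX1 (285 kb), chromosome 12, 11790000 to 12058000 for ETV6 (268 kb), and chromosome 4, 108960000 to 109102000 for LEF1 (142 kb). The windows held 191 of 159806 peaks. These peaks lay in 93 of the 74123 regions that form when overlapping peaks of all lists are joined.

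The series has 8 libraries of 697 cells cultured alike, and the labels name no treatment: 1 each for MTA2, Mi2, HDAC2, IKAROS, AIOLOS, OCAB and OCT2, and 1 input library of genomic DNA without antibody. The HDAC2 list names, in its header, an input kept with that experiment, and the sources used here do not say whether the deposited input was the control of every list, so folds over input are not compared between HDAC2 and the other proteins. MTA2, Mi2 and HDAC2 belong to the NuRD complex, which remodels nucleosomes and removes acetyl groups from histones. IKAROS and AIOLOS are lymphoid zinc-finger factors, OCT2 binds octamer DNA, and OCAB is its B-cell coactivator. The 697 line is 1 leukaemia, and each antibody had 1 library, so no value below has a replicate error and no test between proteins was possible. Intervals cover counting error only, and reads without molecular identifiers are not independent molecules.

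ERG and ETV6 belong to the ETS family of DNA-binding factors. ERG sustains blood stem cells, and ETV6 is mainly a repressor. RUNX1 is the DNA-binding subunit of core binding factor and is needed to form definitive blood stem cells; its fusion with ETV6 is a frequent lesion of childhood B-cell leukaemia. LEF1 carries an HMG box, works with beta-catenin in Wnt signalling and is made in early B cells. All of these genes are known targets of lesions in acute lymphoblastic leukaemia, through fusion, deletion or mutation.

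Because OCT2 and IKAROS are among the proteins mapped, RefSeq promoter sequences of the 4 genes (build GRCh38.p14) were searched on both strands for the octamer ATGCAAAT, for its first bases ATGCAAA, and for the IKAROS core TGGGAA. The search covered the 250 bases before each start. Every full octamer match is also a match to ATGCAAA. The stretches shown are those with a match for RUNX1, ETV6 and LEF1, each written 5′ to 3′ on the strand of the gene with the match in capitals. They lie at chr21:34888700-34888949 (minus strand), chr12:11649424-11649673 (plus strand) and chr4:108166302-108166551 (minus strand).
RUNX1: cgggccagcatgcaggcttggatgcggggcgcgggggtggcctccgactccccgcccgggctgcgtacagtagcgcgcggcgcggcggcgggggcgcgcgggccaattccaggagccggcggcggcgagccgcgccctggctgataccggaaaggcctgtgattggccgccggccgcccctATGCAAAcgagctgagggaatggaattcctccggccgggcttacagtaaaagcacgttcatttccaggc
ETV6: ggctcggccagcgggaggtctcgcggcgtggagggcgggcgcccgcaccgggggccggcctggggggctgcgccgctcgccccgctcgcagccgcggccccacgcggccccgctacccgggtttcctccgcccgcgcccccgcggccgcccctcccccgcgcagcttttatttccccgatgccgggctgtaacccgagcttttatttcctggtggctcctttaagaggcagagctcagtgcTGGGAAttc
LEF1: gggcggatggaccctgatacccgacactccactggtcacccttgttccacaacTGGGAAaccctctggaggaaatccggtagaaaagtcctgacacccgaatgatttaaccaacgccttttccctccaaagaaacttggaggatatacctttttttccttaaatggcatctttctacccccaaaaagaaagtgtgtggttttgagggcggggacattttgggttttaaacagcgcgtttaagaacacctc

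In RUNX1 the shortened octamer began 69 bases before the start. Of 35116 RefSeq promoter stretches of this length, 3.94% held ATGCAAA and 1.63% the full octamer, which none of the entries of the 4 genes held. TGGGAA began 9 bases before the start in ETV6 and 197 bases before it in LEF1, and was present in 20.8% of all stretches. ERG had 4 entries, of which 1 held TGGGAA. A match of letters is a description of the sequence and not a binding site. The peaks are on hg19, for which no sequence or gene model was used here, so no peak was assigned to a promoter, exon or intron.

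All 4 windows held more peaks per length than the lists did on the whole. Over the 1000 kb that the windows cover together, there were 93 joined regions, against 25.1 per Mb over the whole span of the lists, a ratio of 3.70 (exact Poisson 95% interval 2.99 to 4.53). The ratio was 3.13 for ERG, 4.47 for RUNX1, 3.71 for ETV6 and 3.36 for LEF1, and the intervals of the 4 genes overlapped. When the genome was laid out end to end in stretches as wide as each window, as many regions or more were found in 5.51% of stretches for ERG, 0.988% for RUNX1, 3.06% for ETV6 and 6.68% for LEF1. The span includes long stretches without genes, and other active genes were not set beside these 4.

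IKAROS and AIOLOS gave 54 and 48 of the 191 window peaks. They also have the longest lists, with 53948 and 38101 of all 159806 peaks, so these counts do not set the windows apart. IKAROS had 15 peaks in ERG, 17 in RUNX1, 14 in ETV6 and 8 in LEF1. AIOLOS had 10, 19, 11 and 8 in the same order. The density of IKAROS peaks was thus much alike in the 4 genes, at 2.69 to 3.26 times that of its list. MTA2 had 7 peaks in ERG, 9 in RUNX1, 10 in ETV6 and 5 in LEF1. HDAC2 had 6, 6, 5 and 1, and Mi2 had 3, 5, 7 and 1. The octamer proteins were spread unevenly. OCT2 had 8 peaks in RUNX1 and 2 in each of the other genes, and OCAB had 6 in RUNX1, 2 in ERG and 1 each in ETV6 and LEF1.

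**Figure D1:**
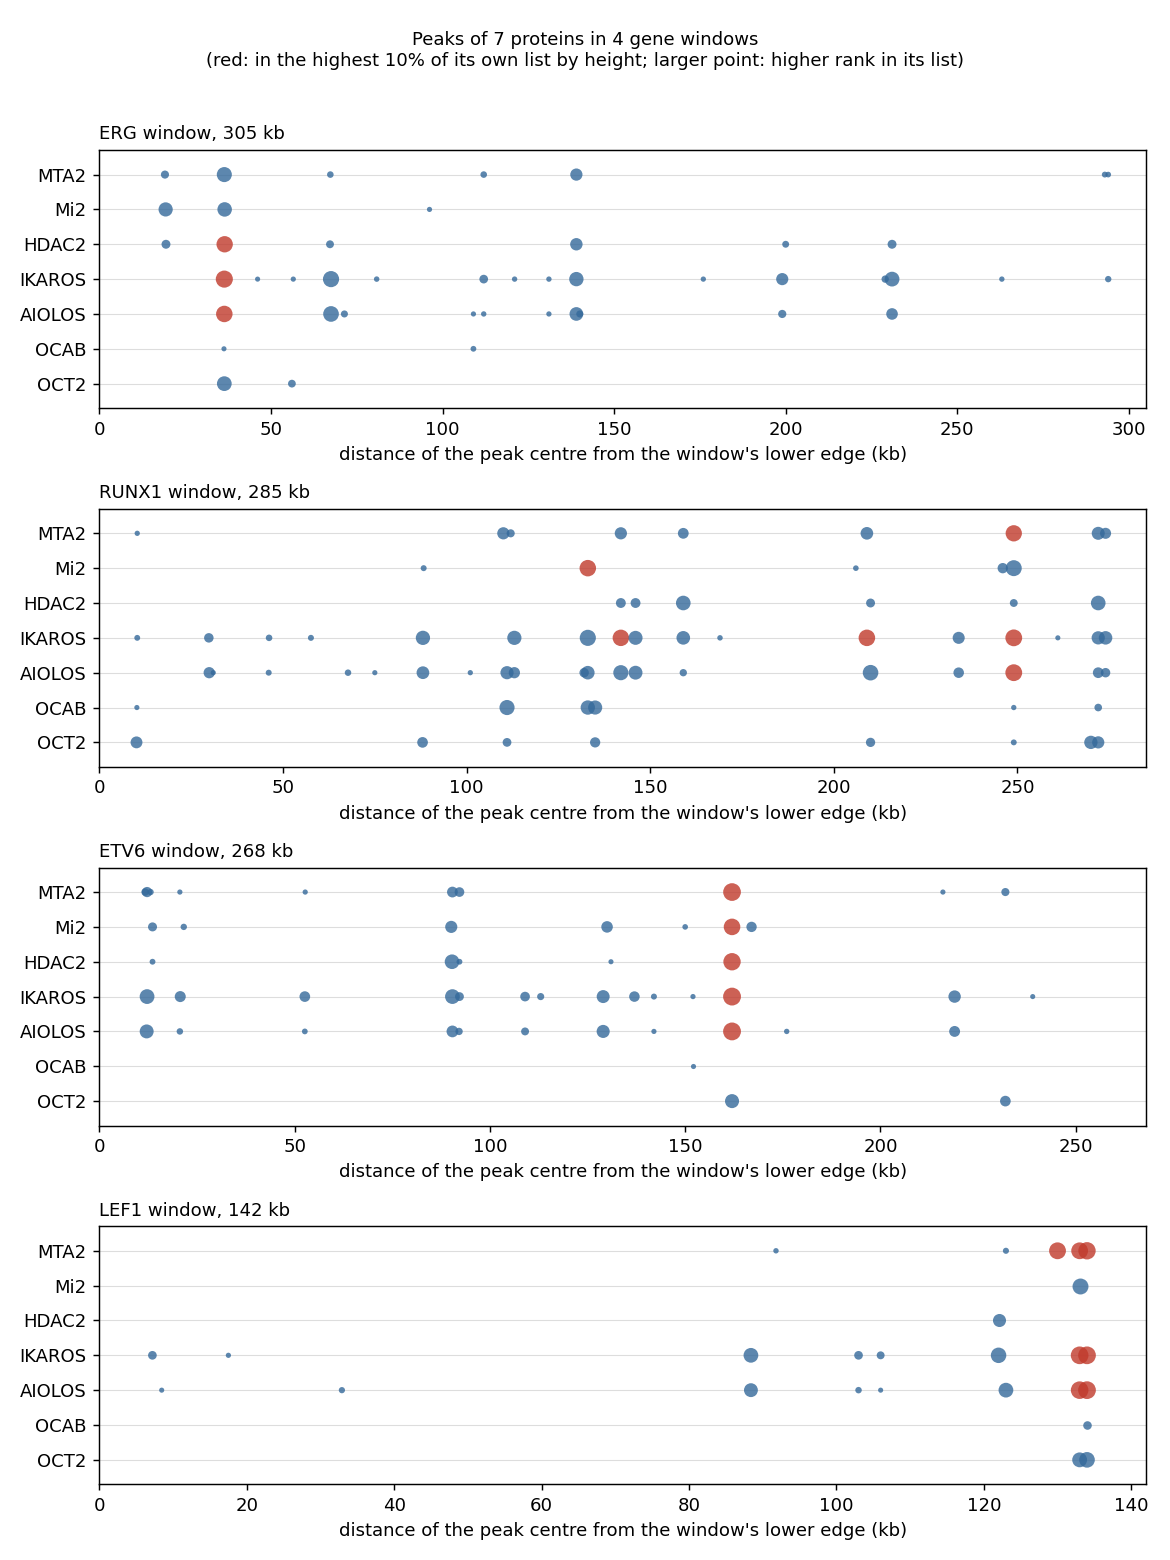
Peaks of the 7 proteins (rows) along each gene window; the horizontal axis is the distance in kb of the peak centre from the lower edge of the window, red marks a peak in the highest 10% of its own list, and larger points rank higher. Red points stack at 1 place in ERG and in ETV6, lie at several places in RUNX1 and gather at the right-hand end of LEF1.

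RUNX1 stood out for the octamer proteins. Its 6 OCAB peaks made 21.1 per Mb, 14.0 times the density of the OCAB list (5.13 to 30.4), and its 8 OCT2 peaks made 28.1 per Mb, 10.2 times that of the OCT2 list (4.39 to 20.0). Only 0.174% of equal stretches held as many OCAB peaks and 0.223% as many OCT2 peaks. In ERG the ratios were 4.35 for OCAB and 2.38 for OCT2, in ETV6 2.48 and 2.70, and in LEF1 4.67 and 5.10; each of these rests on 1 or 2 peaks, and each interval reaches below 1 and overlaps that of RUNX1. ETV6 had the most Mi2 peaks, 7.47 times the density of the Mi2 list (3.00 to 15.4), with as many in 0.756% of equal stretches. None of the RUNX1 octamer peaks reached the highest 10% of its list, and with the 2000 highest peaks per list, 3 OCAB peaks and 0 OCT2 peaks were left. That cut keeps a larger part of the OCAB list, of 4440 peaks, than of the OCT2 list, of 8129, so these 2 counts are not comparable. At 8-fold over input, ETV6 kept 3 of its 7 Mi2 peaks.

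**Figure D2:**
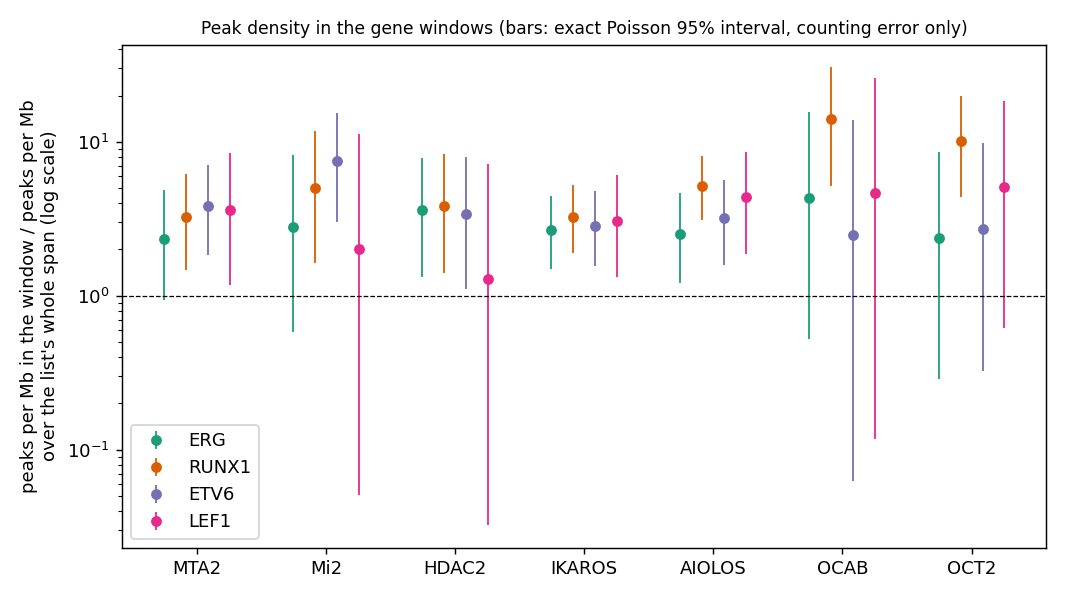
Peaks per Mb in each window divided by peaks per Mb over the whole span of the same list (vertical log axis), for each protein (horizontal axis) and gene (colour); bars are exact Poisson 95% intervals, and the dashed line marks equal density. OCAB and OCT2 are highest in RUNX1, at 14.0 and 10.2, while the IKAROS ratios of the 4 genes lie between 2.69 and 3.26.

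Pooled over the 4 windows, height, the number of tags in a peak per 10 M tags of its library, showed no general rise. The median IKAROS height was 22.4 over the 54 window peaks and 20.5 in the list, and for AIOLOS it was 23.9 and 23.7. The NuRD subunits gave 15.8 and 16.2 (MTA2), 14.2 and 14.7 (HDAC2), and 15.6 and 14.6 (Mi2). OCT2 gave 16.1 and 14.2, and OCAB was lower in the windows, at 11.9 and 16.0. A peak was counted as high where it reached the 90th percentile of its list. That held for 7 of 54 IKAROS peaks (10.1% of the list), 5 of 48 AIOLOS peaks (10.1%), 5 of 31 MTA2 peaks (10.0%), 2 of 18 HDAC2 peaks (10.5%), 2 of 16 Mi2 peaks (10.1%), 0 of 10 OCAB peaks (10.0%) and 0 of 14 OCT2 peaks (10.2%). The total of 21 of 191 was near the background share. High peaks were unevenly placed, with 7 of 26 in LEF1, 5 of 50 in ETV6, 6 of 70 in RUNX1 and 3 of 45 in ERG. Input under the peaks varied by list. The median IKAROS peak held 3 input tags in the windows and 3 in the list, with medians of 2 in ERG, 4 in RUNX1, 3.5 in ETV6 and 4 in LEF1. Counted in tags adjusted to ChIP depth, the medians were higher in the windows for Mi2, at 3.50 against 2.60 in the list, and lower for OCAB, at 1.70 against 2.50. In single windows, OCT2 in ETV6 stood at 5.20 over 2 peaks against 2.60, and the LEF1 Mi2 peak at 7 against 2.60. The part of input in the peak counts was not tested.

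In ERG, 1 region held all 7 proteins. It lay at chromosome 21, 39776200 to 39776702, and its peaks were the highest in the window for MTA2, Mi2, HDAC2, IKAROS, AIOLOS and OCT2. Heights were 109.1 for IKAROS, 77.8 for AIOLOS, 28.9 for MTA2 and 26.6 for HDAC2. OCT2 stood at 23.5, Mi2 at 20.0 and OCAB at 7.98. The IKAROS, AIOLOS and HDAC2 peaks were in the highest 10% of their lists, the MTA2, Mi2 and OCT2 peaks in the highest 17.2% to 20.8%, and the OCAB peak was among the lowest of its list, which it just entered with rank 4301 of 4440. The centres of MTA2 and OCT2 were 11 bp apart and those of MTA2 and IKAROS 17 bp, while the Mi2 centre lay 131 bp from that of MTA2.

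Most other ERG peaks were low. Of the 24 regions, 15 held 1 protein alone. The next highest IKAROS peak, of height 70.6, lay at 39807325 to 39807597 together with AIOLOS (60.4), MTA2 (11.4) and HDAC2 (12.8). Another region, at 39878569 to 39878909, held the same proteins at 43.2, 39.8, 20.1 and 17.4. Of the 93 window regions, 1 held all 3 mapped NuRD subunits without IKAROS or AIOLOS. The share of such regions elsewhere was not counted, so this 1 region is not called rare or frequent. It lay at 39758932 to 39759600, where MTA2 stood at 13.6, Mi2 at 19.5 and HDAC2 at 13.7. The MTA2 and HDAC2 peaks did not overlap, had centres 384 bp apart and were joined only through Mi2. Folds over input were below the list medians, at 4.81 against 11.6 for MTA2 and 6.89 against 9.18 for Mi2. For HDAC2, whose header names an input of its own, the fold was 6.87 against 7.33. The highest OCAB peak of ERG, at 39849184 to 39849450, had a height of 10.8 and lay with AIOLOS at 11.2. The longest stretch without a peak of any list ran for 36.1 kb from 39879798 to 39915899.

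ETV6, the other ETS gene, had the strongest site of the 4 genes. At chromosome 12, 11951839 to 11952192, IKAROS reached 484.6, rank 68 of 53948, and AIOLOS 420.8, rank 81 of 38101. MTA2 stood at 85.4, rank 278 of 28760, HDAC2 at 34.8, rank 459 of 16125, Mi2 at 27.0, rank 766 of 10303, and OCT2 at 21.3, rank 1824 of 8129. No OCAB peak was listed there. The IKAROS, AIOLOS and MTA2 peaks were in the highest 1% of their lists. Each of the 6 peaks was the highest of its list in the window, and these 5 high peaks of NuRD, IKAROS and AIOLOS were the only ones in ETV6 that reached the 90th percentile.

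The ETV6 site was sharp. IKAROS and AIOLOS centres were 1 bp apart and MTA2 lay 19 bp from IKAROS, against medians of 33.0 and 42.0 bp over all shared regions. IKAROS stood 97.17-fold and AIOLOS 114.93-fold over the surrounding region in the deposited values. The input was also above the usual level, with 7 tags under the IKAROS peak, and the fold over input was 147.09 for IKAROS and 25.92 for MTA2, but 5.74 for Mi2 and 5.65 for OCT2. For HDAC2, whose header names an input of its own, it was 7.73. At 8-fold over input the HDAC2, Mi2 and OCT2 peaks were dropped.

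Elsewhere in ETV6, no IKAROS peak was above 47.5, a height reached at 11802021 to 11802354 together with AIOLOS (41.7) and MTA2 (16.6). A region at 11879899 to 11880501 held IKAROS (47.0), AIOLOS (29.9), HDAC2 (21.1), MTA2 (17.5) and Mi2 (16.7). Of the 7 Mi2 peaks, 4 lay in regions with no other protein, with heights from 10.8 to 16.2, and 1 lay with HDAC2 alone. Mi2 without another protein was common everywhere, in 7 of 16 window regions with Mi2 (43.8%) and in 42.7% of all regions with Mi2. The single OCAB peak, at 11941456 to 11941722, had a height of 8.55 and lay with an IKAROS peak of 8.13. The second OCT2 peak, of height 15.3, lay with MTA2 (13.6) at 12021392 to 12021721. Past 11965791 no peak was listed for 40.3 kb.

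RUNX1 had the most peaks, 70 in 32 regions, without a site as strong as that of ETV6. Its highest IKAROS, AIOLOS and MTA2 peaks lay in a region of all 7 proteins at chromosome 21, 36398876 to 36399574. IKAROS stood there at 90.7, AIOLOS at 89.6, MTA2 at 37.2, Mi2 at 23.8, HDAC2 at 12.8, OCT2 at 9.82 and OCAB at 9.69. Input was low at this place, with 1 tag under the IKAROS peak and none under the MTA2 peak, so folds over input are not given. Centres of IKAROS, AIOLOS, OCAB, OCT2 and Mi2 lay within 89 bp of each other, whereas the HDAC2 centre lay 313 bp from that of IKAROS and 177 bp from that of MTA2. A joined region at 36421368 to 36422000 held every protein except Mi2. Heights were 34.6 for IKAROS, 26.1 for AIOLOS, 21.9 for MTA2, 21.1 for HDAC2, 17.5 for OCT2 and 13.1 for OCAB. The OCT2, OCAB and MTA2 centres lay within 57 bp, and the HDAC2, IKAROS and AIOLOS centres within 88 bp. Centres of the first group were 222 to 367 bp from those of the second.

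The RUNX1 OCAB peaks were highest away from these shared regions. The highest, 31.9, lay at 36260918 to 36261184 with no other peak on it, 19 bp from a region of AIOLOS (36.7) and OCT2 (13.1). The next, 27.3 at 36282965 to 36283231, lay with IKAROS (70.6) and AIOLOS (39.2). The highest Mi2 peak of the window (26.5) was joined to this region through IKAROS. It did not overlap the OCAB peak, and their centres were 380 bp apart. The fold over input of this OCAB peak was 4.15, with 11.6 input tags against a list median of 2.5. At 36284585 to 36284880, OCAB (26.2) and OCT2 (14.7) were the only proteins. The other 3 OCAB peaks, of 9.12, 9.69 and 13.1, each lay in a joined region with OCT2, IKAROS and MTA2. That of 13.1 overlapped the OCT2 and MTA2 peaks but not the IKAROS peak, whose centre lay 278 bp away. The 8 OCT2 peaks ranged from 9.82 to 19.6, the highest of them alone at 36419739 to 36420013. The highest HDAC2 peaks, both of 21.1, lay at 36308617 to 36308935 and 36421625 to 36421943.

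In RUNX1, from 36260234 to 36263575, 6 separate regions followed each other with gaps between 19 and 754 bp. In order they held MTA2 (20.1), AIOLOS with OCT2, OCAB, MTA2 (13.6), AIOLOS (28.0) and IKAROS (41.9). At 36359093 to 36359407 lay IKAROS (81.7) with MTA2 (21.0), and 47 bp further on AIOLOS (59.1) with OCT2 (13.6) and HDAC2 (13.7). Neighbouring peaks of this kind count as separate where overlap is required.

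LEF1 had the narrowest window, 142 kb, and the fewest regions, 12, although per Mb it had 84.5 against 78.7 in ERG. The share of its peaks that were high, 7 of 26, was the largest of the 4 genes. A pair of strong sites lay close together near the upper edge of the window, which is the 5′ side of this minus-strand gene. At chromosome 4, 109092608 to 109093074, IKAROS stood at 210.4, AIOLOS at 165.6, MTA2 at 43.3, OCT2 at 24.0 and Mi2 at 23.8. Across a gap of 386 bp, at 109093460 to 109093759, AIOLOS stood at 229.7, IKAROS at 220.3, MTA2 at 56.0, OCT2 at 27.3 and OCAB at 14.2. The AIOLOS peak of the second site ranked 329 of 38101 and the IKAROS peak 532 of 53948, both in the highest 1%. No HDAC2 peak was listed at either site.

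The LEF1 sites stood less clear of their surroundings than the ETV6 site. IKAROS was 7.58-fold and 8.24-fold over the surrounding region at the LEF1 sites, although 111.78-fold and 93.61-fold over input. The 2 LEF1 sites were 386 bp apart, so each lay near the other, while the nearest region to the ETV6 site was 4961 bp away. The part of such neighbours in the folds over surroundings was not tested. The third high MTA2 peak, of 44.2, lay alone at 109090068 to 109090318, with no IKAROS or AIOLOS peak on it. The single HDAC2 peak, of 18.3, lay at 109082212 to 109082659 with IKAROS (56.9), AIOLOS (48.6) and MTA2 (10.5). Below 109048242, 55.2 kb held no peak, and the 4 regions beyond held IKAROS or AIOLOS alone, with heights from 8.13 to 17.1. The strong sites lie within 10 kb of the window edge, and cutting 10 kb from each end left 14 of the 26 LEF1 peaks.

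Regions of 5 or more proteins were about as common in the windows as elsewhere, 7 of 93 against 7.85% of all regions. They numbered 1 in ERG and 2 in each of the other genes, and 2 of the 7 held all 7 proteins. With peaks at 8-fold over input or more, 3 of the 7 were left. Regions of 1 protein alone made up 52.7% in the windows and 44.7% overall.

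**Figure D3:**
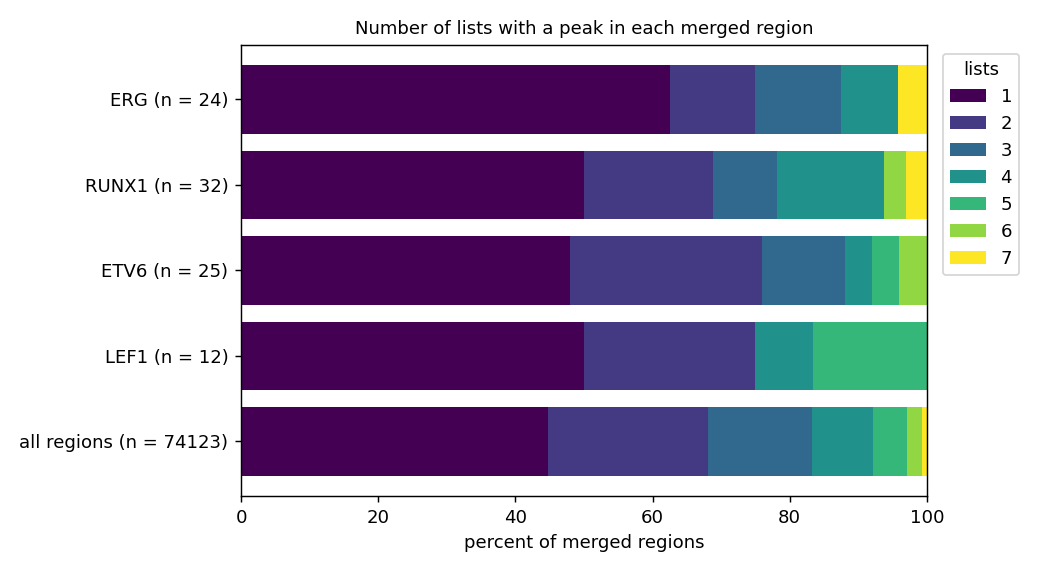
Share of joined regions (horizontal axis, percent) by the number of lists with a peak in them (colour), for each gene window and for all 74123 regions. The classes of 5 to 7 lists together hold 1 of 24 regions in ERG, 2 of 32 in RUNX1, 2 of 25 in ETV6 and 2 of 12 in LEF1.

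Of the 93 window regions, IKAROS was present in 58.1% (exact Clopper-Pearson 95% interval 47.4 to 68.2) and in 72.8% of all regions. AIOLOS was present in 51.6% (41.0 to 62.1) and 51.4%, MTA2 in 33.3% (23.9 to 43.9) and 38.8%, HDAC2 in 19.4% (11.9 to 28.9) and 21.8%, and Mi2 in 17.2% (10.2 to 26.4) and 13.9%. OCT2 was present in 15.1% (8.48 to 24.0) and 11.0%, and OCAB in 10.8% (5.28 to 18.9) and 5.99%. IKAROS was the only protein whose interval lay wholly to 1 side of its share over all regions. Regions of 1 locus are not independent, so these intervals are too narrow. In RUNX1 alone, OCT2 was present in 8 of 32 regions, 25.0% (11.5 to 43.4), and OCAB in 6 of 32, 18.8% (7.21 to 36.4); both intervals lay above the overall shares. IKAROS was present in 17 of 32 RUNX1 regions, 53.1% (34.7 to 70.9), with the interval below 72.8%, whereas the IKAROS intervals of ERG, ETV6 and LEF1 each covered that share. Whether RUNX1 differs from the other genes in this was not tested.

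AIOLOS without IKAROS was found more often than in the AIOLOS list as a whole. Of 48 AIOLOS peaks, 14 lay in regions without IKAROS, 29.2% against 13.5% of the list. They numbered 8 of 19 in RUNX1, 3 of 10 in ERG, 2 of 8 in LEF1 and 1 of 11 in ETV6. Their median height was 15.2, against 28.6 for the 34 peaks with IKAROS, and in the list it was 15.6 against 25.5. The highest, 59.1, was the RUNX1 peak named above, 159 bp from an IKAROS peak, and 6 of the 14 had an IKAROS peak within 2000 bp. With regions joined across gaps of up to 500 bp, a setting added once these neighbouring peaks had been noticed, the share of window regions with AIOLOS that also held IKAROS was 76.1% and that of all such regions was 90.5%, compared with 70.8% (55.9 to 83.0) and 86.5% when overlap was required. Why the peaks did not coincide was not tested.

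Where both were present, IKAROS and AIOLOS heights went together. In 34 regions the log2 ratio of IKAROS to AIOLOS height had a median of 0.21 and ran from -0.54 to 1.10; over all 32931 shared regions its median was 0.29, with the middle 90% between -0.55 and 0.93. IKAROS was the higher in 27 of the 34, and in 74.5% of all shared regions. The 3 strongest sites gave 0.20 in ETV6 and 0.35 and -0.06 in LEF1. The RUNX1 region at 36308573 to 36309015 leaned most to IKAROS, with 37.2 against 17.4 (1.10), and that at 36179712 to 36179999 most to AIOLOS, with 19.2 against 28.0 (-0.54).

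**Figure D4:**
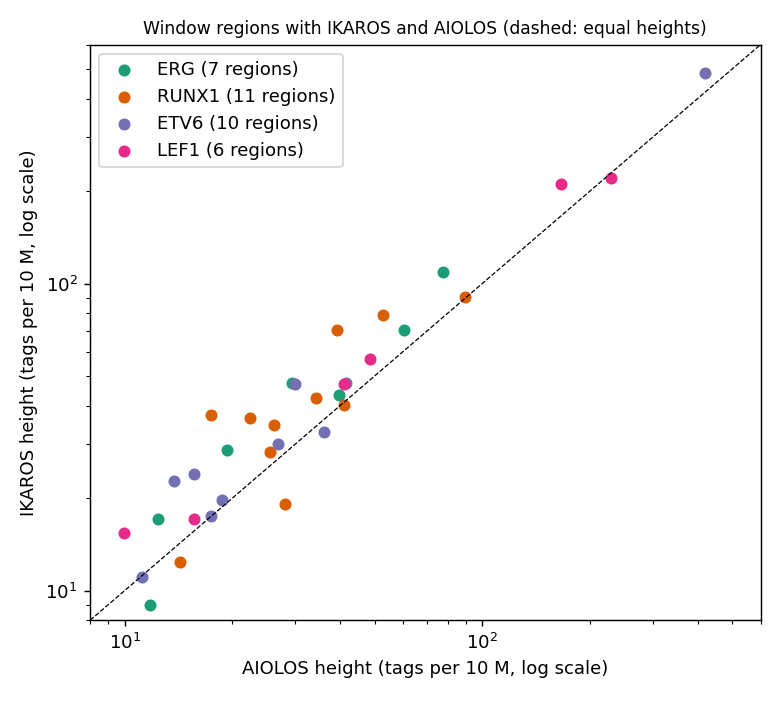
IKAROS height (vertical) against AIOLOS height (horizontal), both in tags per 10 M on log axes, at the 34 window regions that hold both; colours mark the gene and the dashed line marks equal heights. Points follow the line over the whole range, with 27 of 34 above it, and the ETV6 site at 484.6 and 420.8 lies at the top right.

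Among NuRD subunits, the log2 ratio of MTA2 to HDAC2 height had a median of 0.09 over 12 regions and 0.43 over all shared regions. It was highest at the RUNX1 region of all 7 proteins (1.54) and at the strong ETV6 site (1.30), and lowest at the LEF1 region with HDAC2 (-0.80). The MTA2 to Mi2 ratio had a median of 0.59 over 6 regions and 0.42 over all. The OCT2 to OCAB ratio had a median of 0.65 over 6 regions and -0.06 over all, and OCT2 was the higher in 5 of the 6. The exception was the RUNX1 region of OCAB and OCT2 alone (-0.83). With so few regions and no replicate libraries, no difference is read from these medians.

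For each partner of OCAB and OCT2 in the windows, the interval of its share covered the share over all regions, so no difference was detectable at these numbers. OCT2 was present in 6 of 10 OCAB regions, 60.0% (26.2 to 87.8), and in 42.2% of all OCAB regions. IKAROS was present in 8 of 14 OCT2 regions, 57.1% (28.9 to 82.3), against 78.9%, and MTA2 likewise in 8 of 14, against 73.5%. MTA2 was present in 5 of 10 OCAB regions and in 51.7% of all. MTA2 lay alone in 9 of its 31 regions, 29.0% (14.2 to 48.0), against 14.7% overall; at this number of regions the difference is within the interval.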

How the data were processed

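ChIP-seq libraries of 697 cells were used through 7 peak lists, 1 per antibody, with no pooling recorded; the input has no list. Bowtie2 2.3.2.2, HOMER 4.9.1 and build hg19 are named for every library, with CASAVA 1.8.2 except for HDAC2, where it is 1.4 (credited to the submitters' processing notes). The authors deposited the height as a signal (tags per 10 M tags), the focus column as a fraction, HOMER's score, whole tag counts for 5 lists, fold values as ratios to input and to surroundings, and p-values over input. The highest p-value was 9.5e-05 for HDAC2 and at most 8.92e-10 in the others, so the HDAC2 list is looser. Folds rest on a floor of 0.5 tag where input had none.

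Peaks overlapping by 1 bp were joined into regions. Heights were ranked within a list. Density used the span of peaks on the autosomes and X. Depth was 10.9 to 18.5 M tags for the 5 lists with whole counts. Joining code was tested on simulated peaks. Named regions are the highest peak of each list per window, regions of 5 or more lists and peaks in the highest 1%; others are given as context, chosen after their values were seen. Members and lists were chosen with earlier results of these data known. Python 3.11.15, numpy 2.4.6, pandas 2.3.3, scipy 1.17.1 and matplotlib 3.10.9 were used. With 1 library per antibody there was no test and no replicate check.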

Additional observations from a re-analysis of the deposited data

How the results depend on the processing

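No paired analysis was possible because each antibody had 1 library, and for the same reason no replicate could be left out. With the 2000 highest peaks of each list (ties kept), 24 peaks in 10 regions were left: 3 peaks in 1 region of ERG, 5 in 5 of RUNX1, 6 in 1 of ETV6 and 10 in 3 of LEF1. Of these regions 2 held 5 or more lists; 50.0% held Mi2, 30.0% IKAROS, 30.0% AIOLOS, 30.0% OCAB and 40.0% OCT2, and IKAROS was present in 100% of the 3 with AIOLOS. These numbers follow from the shorter lists. At 8-fold over input or more, 3 regions held 5 or more lists, 9.88% of regions held Mi2 and 8.64% held HDAC2, whose fold may rest on another input. At a p-value of 1e-10 or less over input, 8.89% held HDAC2, whose list has the loosest limit. Windows cut by 10 kb at each end left 14 peaks in LEF1. Counting the highest 5% of a list in place of the highest 10%, 10 of 191 window peaks were high in place of 21. This fall follows from the stricter limit. Requiring centres within 100 bp, leaving out HDAC2 or joining regions across 500 bp (added after the data were seen) moved no summary count of the windows by more than 1.5 times. No window share left its interval under these settings. Fold in place of height moved each median log2 ratio by less than its standard deviation over window regions, 0.36 to 0.83, a wide limit. Taken minus the median of all regions, OCT2 to OCAB went from 0.72 to 0.22 and MTA2 to Mi2 from 0.17 to 0.55. IKAROS to AIOLOS went from -0.07 to -0.01. MTA2 to HDAC2 is not given because the HDAC2 fold may rest on another input. The share of all regions with AIOLOS that hold IKAROS, 86.5%, ran from 78.6% (centres) to 90.5% (500 bp), and in the windows from 64.6% to 76.1% under those settings.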
